A study of Homo sapiens and Mus musculus with 16 samples.

Results

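The widest accessible regions of HPAF-II cells were examined, taken as every region of 1500 bp or more, from its first to its last base, in the control (Cas9) or the HNF4G-KO region list. HPAF-II is an established human pancreatic adenocarcinoma line. Of 118107 control regions, 3312 were wide, which is 2.80% (Wilson 95% interval 2.71 to 2.90). Of 97047 HNF4G-KO regions, 2227 were wide, which is 2.29% (2.2 to 2.39). The 5539 wide regions stood among 364071 regions in the 4 lists of the series. Both groups came from the same parental line and were described by 4 replicates each, the control with wild-type genotype and Cas9 treatment, the HNF4G-KO with CRISPR guides to HNF4G and a KO genotype. The methods describe the knockout as a pool of 3 single-cell clones, so a clone's own changes cannot be told apart from those of the gene loss. The other samples were the untreated KPC tumor and KPC liver mets mouse lines, where 1.83% and 0.586% of regions were wide. Each group was represented by 1 region list without values per replicate, so no spread between replicates was available and every comparison of the lists is a description. Intervals cover counting error only.

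ATAC-seq marks DNA that the Tn5 transposase can reach, which is mostly DNA free of nucleosomes. A promoter typically holds a nucleosome-free stretch at the transcription start site, flanked by positioned nucleosomes, and the promoters of many broadly expressed genes lie in CpG islands, stretches rich in C and G where CpG pairs have been kept. Enhancers away from starts are usually shorter accessible stretches with binding sites of lineage factors. HNF4G is a nuclear receptor of the HNF4 family and binds the HNF4 consensus, and FOXA1 and GATA6 are lineage factors of the foregut and pancreas.

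Stretches of reference sequence from 4 wide loci are shown first as examples of a promoter region wide in both lists, of bases that were listed in 1 of the lists only, and of a distal region. Single stretches do not stand for the composition of their class, which is given later over all wide regions. All are 150 bases of hg38, plus strand, outside annotated exons. In the first 3, capitals mark CpG pairs. The first lies in the region over the start of KRT8, the widest promoter region that was a single wide region in both lists (chr12:52926729-52926878). The second was listed in control only, at VLDLR (chr9:2622743-2622892). The third was listed in HNF4G-KO only, at JAZF1 (chr7:28180088-28180237). In the fourth, from a distal region whose nearest protein-coding gene is ANO1 and that was wide in both lists (chr11:69949466-69949615), capitals mark the AP-1 consensus TGACTCA.
KRT8: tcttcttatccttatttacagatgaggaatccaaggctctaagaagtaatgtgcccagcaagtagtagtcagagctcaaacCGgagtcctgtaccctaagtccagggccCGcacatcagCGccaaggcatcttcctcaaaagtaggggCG
VLDLR: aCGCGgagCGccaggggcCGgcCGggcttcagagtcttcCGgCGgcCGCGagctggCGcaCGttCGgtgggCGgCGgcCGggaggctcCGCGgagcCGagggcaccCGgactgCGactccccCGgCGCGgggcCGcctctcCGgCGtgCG
JAZF1: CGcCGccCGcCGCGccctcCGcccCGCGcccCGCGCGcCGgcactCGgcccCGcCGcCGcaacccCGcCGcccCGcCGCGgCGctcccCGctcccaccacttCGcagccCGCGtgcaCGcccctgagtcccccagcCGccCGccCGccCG
nearest ANO1: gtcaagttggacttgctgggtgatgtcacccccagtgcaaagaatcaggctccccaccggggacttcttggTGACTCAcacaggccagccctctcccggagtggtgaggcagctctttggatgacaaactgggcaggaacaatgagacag

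The KRT8 stretch held 4 CpG pairs and 50% G and C, and the distal stretch near ANO1 held 2 and 57.3%. The KRT8 stretch was thus lower in G and C than the distal one, the reverse of the order over all wide regions. The VLDLR stretch held 27 CpG pairs and 81.3% G and C, and the JAZF1 stretch held 31 and 88.0%. These windows were picked for their position and, at the 3 genes, for the most CpG pairs within the allowed bases.

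A second set shows the HNF4 consensus CAAAGTCCA in bases of wide loci that the control list held and the HNF4G-KO list did not. Of the 18 such matches, the 4 at the loci with the largest loss of listed bases are printed 5′ to 3′ on the strand of the match, with 10 bases on each side and the consensus in capitals. They lie at the ALPK3 promoter region (chr15:84819331-84819359, minus strand), a distal region nearest SLC6A15 (chr12:84501900-84501928, minus strand), a distal region nearest PITPNC1 (chr17:67423076-67423104, plus strand) and the CYB5R3 promoter region (chr22:42648506-42648534, minus strand).
ALPK3: aaacacagccCAAAGTCCAaagctttctc
SLC6A15: atcatcagttCAAAGTCCAaagtctcatc
PITPNC1: atatgttgaaCAAAGTCCAttgattcttc
CYB5R3: catggggtttCAAAGTCCActctgctgct

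At the ALPK3 locus 1688 bp were listed in control and 975 bp in HNF4G-KO. The values were 1791 and 1122 bp at the SLC6A15 locus, 1576 and 932 bp at PITPNC1, and 1650 and 1081 bp at CYB5R3. All 4 matches lay in stretches that only the control list held, by the way they were chosen, and a match is not evidence of binding.

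The deposited scores were used only as ranks within a list because their scale is not given. The sequencing depth of neither list is known. Regions of 1 list were never closer than 76 bp, in both lists. All 8 epithelial markers, such as KRT8, EPCAM and CDH1, had a region over a start site in both lists. Of 10 markers of blood, endothelial and fibroblast cells, 3 did, among them CD14 and COL1A1, and PTPRC, PECAM1 and COL3A1 had none. HNF4G itself had a region of 1314 bp over its start in control and 1338 bp in HNF4G-KO, so it was not among the wide regions. The guides act in exons, so this region does not check the knockout.

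Among the control wide regions the median width was 1702 bp, 500 reached 2000 bp, 52 reached 2500 bp and 4 reached 3000 bp. Among the HNF4G-KO wide regions the median was 1676 bp, and 283, 27 and 3 reached those widths. The wide regions covered 5.85 Mb in control, 8.75% of all listed bases, and 3.88 Mb in HNF4G-KO, 7.20%. The selection used the width alone and cut through a continuous range. In control, the regions over the starts of GAPDH, BCDIN3D and ME2 were just inside at 1500 bp, while those of PTBP2 and USP47 and a region nearest CDKN3 were just outside at 1499 bp. In HNF4G-KO, the regions of ARL3/SFXN2, SFR1 and SSH3 were just inside and those of HNRNPF, SYT17 and FBXL19 just outside, at the same widths.

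The deposited score did not enter the selection. The median score percentile of wide regions was 86.9 in control and 87.0 in HNF4G-KO, against 48.4 and 48.9 in the rest of the lists. Across all regions of a list, Spearman's rho between width and score was 0.773 and 0.777. Within the wide regions it was -0.114 in both lists. These correlations are across regions, which are not independent replicates.

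The widest control region, 3493 bp, lay over the start of THBD, which encodes thrombomodulin, a membrane receptor for thrombin. Next came a region of 3403 bp on chromosome 21 whose nearest protein-coding gene, TPTE, is 4149167 bp away. The third, 3367 bp, lay over a start of KDM6B, a histone H3 lysine 27 demethylase. The fourth, 3141 bp, lay on chromosome 1 over the start of a long noncoding RNA gene with no name of its own, where the HNF4G-KO list held 3 regions of 484, 1392 and 982 bp. EPHB4/SLC12A9 followed with 2961 bp over the starts of a receptor tyrosine kinase gene and its neighbor, and KRT8, a simple-epithelium keratin, with 2940 bp. NR3C1, the glucocorticoid receptor gene, had 2821 bp, and HMGA2, a chromatin protein gene, had 2776 bp. In the HNF4G-KO list the chromosome 21 region was the widest at 3379 bp. YWHAZ, which encodes a 14-3-3 protein, followed with 3200 bp, MYO18A with 3020 bp, KRT8 with 2920 bp, OSBPL3 with 2855 bp and IRX5, a homeobox gene, with 2822 bp. TAGLN2, ATG16L2, GALNT9 and RGL2 completed the 10 widest, between 2681 and 2746 bp.

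The other list held 2 or more regions at 8 of the 10 widest control regions and at 3 of the 10 widest HNF4G-KO regions. At THBD the HNF4G-KO list held 3 regions of 201, 314 and 2358 bp. At KDM6B it held 3 of 1313, 926 and 803 bp, and at EPHB4/SLC12A9 3 of 230, 885 and 1148 bp. At the 10 widest HNF4G-KO regions the control list always held a region of 1500 bp or more, such as 2940 bp at KRT8, 2612 bp at OSBPL3 and 2561 bp at IRX5. At YWHAZ the control list held 2 regions of 993 and 1784 bp. The extremes of each list were picked on width, which favors the list that was picked.

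The chromosome 21 region aligned a second time, with 99.5% identity over its whole length, to an unlocalized contig of chromosome 17. Its reads could therefore have come from either place. Of the wide regions, 40 in control (1.21%, 0.888 to 1.64) and 28 in HNF4G-KO (1.26%, 0.871 to 1.81) had such a second alignment of at least 95% identity over at least 50% of their length.

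Most wide regions lay at promoters. A start site of any annotated gene lay in or within 1 kb of 2846 of the 3312 control wide regions, 85.9% (84.7 to 87.1), against 22.9% (22.7 to 23.2) of the other control regions. For HNF4G-KO the count was 1996 of 2227, 89.6% (88.3 to 90.8), against 25.7% (25.5 to 26.0). A wide region meets more starts by its length alone, so the share was also taken from the center of the region. It was then 84.4% against 21.1% in control and 88.5% against 24% in HNF4G-KO. The promoter share was higher in wider regions up to 2000 bp and levelled off above. By width it went from 15.2% of the narrowest control regions, under 250 bp, to 54.9% in the bin from 1000 bp, 83.6% in the bin from 1500 bp and 88.5% in the next bin, and it was 90.4% from 2000 to under 2500 bp. In HNF4G-KO the shares in those bins were 16.7%, 66.0%, 88.0%, 93.2% and 91.0%. Taken from the center, the share in the last 2 of these bins was 87.4% and 87.3% in control and 91.7% and 88.7% in HNF4G-KO, and it was 82.7% (70.3 to 90.6) in the 52 control regions of 2500 bp or more.

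Of the control wide regions, 2595 contained a start of a protein-coding gene, 171 a start of a long noncoding RNA gene only, 14 another start only and 532 none. In HNF4G-KO the counts were 1847, 110, 10 and 260. The starts inside control wide regions belonged to 3151 of 20033 protein-coding genes, which is 15.7% of these genes, and those inside HNF4G-KO wide regions to 2252, which is 11.2%. A wide region over any start was found in both lists for 1852 genes, in control only for 1299 and in HNF4G-KO only for 400. Starts of protein-coding genes on both strands, as at a shared divergent promoter, lay in 482 of the 2595 control regions, 18.6% (17.1 to 20.1), and in 18.6% (16.9 to 20.4) of the HNF4G-KO ones. Among the narrower regions over protein-coding starts the shares were 7.46% (7.01 to 7.93) and 8.39% (7.92 to 8.88). Wider regions have more room for a second start, and the part of width in this difference was not tested.

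Around the start, wide regions reached further into the gene than upstream. For the 1808 control wide regions with the start of 1 protein-coding gene and its main transcript, the median reach was 746 bp upstream (quartiles 533 and 1005) and 984 bp downstream (755 and 1215). The downstream side was the longer in 63.5% (61.2 to 65.7). For 1301 HNF4G-KO regions the medians were 764 and 951 bp, and the downstream side was longer in 60.8% (58.1 to 63.4). Exons made up 36.2% of the bases of control wide regions and coding sequence 7.52%, and the HNF4G-KO shares were 38.9% and 8.30%. The reach around the start and these shares are not given here for narrower regions, so neither is shown to be particular to wide regions.

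Some wide regions contained whole short genes. In control 140 did so, with 152 genes that included 76 long noncoding RNA, 32 microRNA and 8 small nuclear RNA genes. In HNF4G-KO 96 regions held 103 genes, with 51, 25 and 7 of these kinds. A wider region has more room for a whole gene, and no count for the narrower regions is given here. One region held both U4 small nuclear RNA genes, RNU4-1 and RNU4-2, and was 2507 bp wide in control and 2500 bp in HNF4G-KO. MIRLET7I, a let-7 microRNA gene, lay in a region of 1601 bp in control and 1576 bp in HNF4G-KO. MIR203A, a microRNA of squamous epithelia, lay in regions of 1511 and 1529 bp. These 3 loci differed by at most 25 bp between the lists.

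Wide regions shared a base composition that the selection did not use. At promoters, control wide regions had a median G and C content of 62.7% and a CpG observed over expected ratio of 0.732, against 57.3% and 0.451 in the other promoter regions. In HNF4G-KO the values were 64.7% and 0.759, against 58.7% and 0.553. At least 50% G and C together with a ratio of at least 0.6, a common description of a CpG island, held for 80.6% (79.1 to 82.0) of control and 85.3% (83.6 to 86.8) of HNF4G-KO wide promoter regions. The shares for the other promoter regions were 39.6% (39.1 to 40.2) and 45.9% (45.3 to 46.5). The wide regions with no start within 1 kb had lower values than the wide promoter regions, but higher ones than the other regions with no start within 1 kb. Their median ratio was 0.243 in control and 0.267 in HNF4G-KO, against 0.189 and 0.193 in the other regions of this kind. The CpG island description was met by 8.58% (6.37 to 11.5) and 9.52% (6.37 to 14.0) of the wide ones. It was met by 1.78% (1.70 to 1.87) and 2.30% (2.19 to 2.41) of the others.

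The consensus sequences of factor families were counted on both strands of the central 500 bp, so that width did not enter, and set beside regions from 500 to under 1500 bp in the same list. The SP/KLF consensus GGGGCGGGG was in 30.5% (28.8 to 32.2) of control wide promoter regions and 19.4% (18.8 to 20.1) of the narrower promoter regions. The AP-1 consensus was in 4.81% (4.09 to 5.66) and 15.7% (15.2 to 16.3). The HNF4 consensus was in 0.387% (0.216 to 0.691), which is 11 of 2846 regions, and in 1.08% (0.928 to 1.25) of the narrower ones. The intervals for the ETS consensus CCGGAAGT overlapped, at 5.62% (4.83 to 6.53) and 5.14% (4.82 to 5.49). Away from starts, AP-1 was in 23% (19.4 to 27.0) of wide and 39.8% (39.3 to 40.4) of narrower regions, HNF4 in 1.72% (0.872 to 3.35) and 1.79% (1.65 to 1.93), and FOXA, TGTTTAC, in 9.23% (6.92 to 12.2) and 12% (11.7 to 12.4). In HNF4G-KO the order was the same for SP/KLF (33.3% against 23.1% at promoters), AP-1 (5.11% against 14.4% at promoters and 22.1% against 41.9% away from starts) and HNF4 at promoters (0.301% against 0.864%). The composition of G and C moved with these shares, and its part was not tested.

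Every wide region met a region of the other list. The same share over all regions is not given here, so this is not shown to be particular to wide regions. Among all 118107 control and 97047 HNF4G-KO regions, 82786 pairs overlapped 1 to 1, a count that leaves out splits. Of the 3312 control wide regions, 1817 or 54.9% (53.2 to 56.5) overlapped a HNF4G-KO region of 1500 bp or more, 855 or 25.8% (24.4 to 27.3) overlapped 1 narrower region, and 640 or 19.3% (18 to 20.7) overlapped 2 or more regions that were all narrower. None was without a region, which allows a share of up to 0.0906% when 3 counts are taken as the limit of a count of 0, and up to 0.116% by the Wilson interval. Of the 2227 HNF4G-KO wide regions, 1817 or 81.6% (79.9 to 83.1) overlapped a wide control region, 141 or 6.33% (5.39 to 7.42) a narrower one and 269 or 12.1% (10.8 to 13.5) a split one. Again none was without a region, which allows up to 0.135% by 3 counts and 0.172% by the Wilson interval. The 2 shares of wide counterparts cannot be read against each other directly, because the control list held more wide regions. When the same number of regions was taken from each list, which moved the control minimum to 1617 bp, they were 64.3% (62.3 to 66.3) and 64.5% (62.5 to 66.5).

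A wide HNF4G-KO region was present at 42.1% (37.7 to 46.6) of control wide regions away from starts and at 57.0% (55.1 to 58.8) of those at promoters. Splits were found at 30.3% (26.3 to 34.6) and 17.5% (16.2 to 19.0). With equal numbers from each list the shares with a wide counterpart were 54.2% (48.3 to 60.0) and 65.7% (63.6 to 67.8). From the side of the HNF4G-KO list the shares were 85.7% (80.6 to 89.6) away from starts and 81.1% (79.3 to 82.8) at promoters. With equal numbers these were 64.9% (58.6 to 70.8) and 64.5% (62.4 to 66.5). No test of these differences was run.

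A loss of the wide class was often a small change. The single narrower HNF4G-KO regions had a median width of 1382 bp (quartiles 1270 and 1452), 383 of 855 were at least 1400 bp and 25 were under 1000 bp. In the other direction the median was 1411 bp, and 77 of 141 were at least 1400 bp. Where a wide region was split, the gap between neighboring pieces had a median of 125 bp (98.0 to 173) in HNF4G-KO and 159 bp (108 to 264) in control. The pieces together still spanned 1500 bp or more at 514 of 640 and 253 of 269 such regions. The HNF4G-KO list covered a median of 92.1% of the bases of a control wide region, and the control list 99.5% of a HNF4G-KO one. Fewer than 50% of the bases were covered at 10 control and 3 HNF4G-KO wide regions.

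To take in both lists, the wide regions were merged into 3722 loci that were wide in at least 1 list. Of these, 1817 were wide in both, 1495 in control only and 410 in HNF4G-KO only. The HNF4G-KO list covered a median of 106 bp less than the control list at a locus (quartiles of HNF4G-KO minus control, -259 and -10.0 bp). It covered fewer bases at 2882 loci, 77.4% (76.1 to 78.7), more at 829 and as many at 11. Bases were counted only inside the locus, which at the 1495 control-only loci was the control region itself. There the HNF4G-KO list could not cover more bases, and at the 410 HNF4G-KO-only loci it could not cover fewer. The median and these counts thus follow in part from the choice of loci. At 184 loci it covered at least 500 bp less, 141 of them at promoters, and at 48 at least 500 bp more, 47 of them at promoters. Of all the loci, 3223 of 3722 lay at promoters. With equal numbers from each list the median difference was -68.0 bp. The narrowing was not limited to wide regions: over 82786 pairs of regions that overlapped 1 to 1, the median HNF4G-KO minus control width was -46.0 bp. Of these pairs, 59121 or 71.4% (71.1 to 71.7) were narrower in HNF4G-KO. This share cannot be set directly against the 77.4% of wide loci with fewer bases. The pairs were not chosen on width and compare whole regions, while the loci were chosen on width and compare covered bases. Among pairs chosen for a wide control region the median was -92.0 bp. Among pairs chosen for a wide HNF4G-KO region, a choice that favors that list, it was still -43.0 bp. The HNF4G-KO list was also the shorter of the lists, and the part of sequencing depth in these widths was not tested.

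The largest loss of listed bases was at VLDLR, which encodes a lipoprotein receptor: 1757 bp in control and 473 bp in HNF4G-KO, a difference of -1284 bp, with low score percentiles of 20.2 and 14.2. MCC, a gene named for its mutation in colorectal cancer, had 2306 and 1211 bp (-1095 bp) with percentiles of 86.9 and 85.8. The next 3 had no start within 1 kb. An intergenic region of chromosome 9, 409973 bp from its nearest protein-coding start at ACTL7B, had 1589 and 543 bp. A region 24252 bp from the start of VRK2 had 2183 and 1178 bp. An intron of GNAQ, a G-protein subunit gene, had 1931 and 936 bp. Of these 5, 3 lay on chromosome 9, which held 143 of the 3722 loci. The 5 were picked as extremes, and their place by chromosome was not tested.

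The largest gain was at JAZF1, a zinc finger gene: 443 bp of the locus in control and 1611 bp in HNF4G-KO, a difference of 1168 bp. Its control region was weak, at a score percentile of 9.47, against 28.6 in HNF4G-KO. Inside their loci ABTB3 had 1446 and 2303 bp, LRRC75A 741 and 1586 bp, PACS2/BRF1 933 and 1775 bp, and PPP1R26 747 and 1571 bp. Some control regions ran past the locus. The whole control region was 1358 bp wide at PACS2/BRF1, 989 bp at PPP1R26 and 476 bp at JAZF1. All 5 lay at promoters.

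The bases that separated the lists differed in composition. Within the 3722 loci, 5859 kb were listed in both, 615 kb in control only and 155 kb in HNF4G-KO only. The G and C content was 62.3% in the shared bases, 52.6% in the control-only bases and 67.6% in the HNF4G-KO-only bases, with 6.75, 3.33 and 9.73 CpG pairs per 100 bases. At promoters alone the contents were 63.7%, 53.6% and 68.5%, and away from starts 52.7%, 48.0% and 55.3%. With equal numbers from each list they were 62.7%, 52.9% and 67.6%. The VLDLR stretch printed above, control-only and 81.3% G and C, ran against this order and the JAZF1 stretch went with it. Of the control-only bases, 19.9% lay between pieces of the other list and the rest at its edges. Of the HNF4G-KO-only bases 44.9% lay between pieces. HNF4G-KO wide regions that were split in control had a median G and C content of 68.8%, against 63.5% for those wide in both. Control wide regions that were split in HNF4G-KO had 59.9%, against 62.8%.

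The consensus counts of these bases followed the same division. The HNF4 consensus occurred 2.93 times per 100 kb of control-only bases (18 matches), 1.62 times in shared bases (95) and 0.646 times in HNF4G-KO-only bases (1). FOXA occurred 14.6, 9.56 and 7.75 times. The GATA consensus AGATAAG, at 7.64, 6.42 and 4.52 times, and the TEAD consensus ACATTCCA, at 4.07, 2.80 and 1.29 times, had the same order. The order was thus not particular to HNF4. SP/KLF ran the other way, with 14.6, 66.8 and 89.1 times per 100 kb. AP-1, at 14.6, 22.4 and 7.75 times, and ETS, at 1.30, 7.46 and 1.94, were densest in shared bases. Shared bases hold the centers of the regions and the others their edges and gaps, and the part of this position and of base composition was not tested. The 4 HNF4 sequences printed above are from the control-only bases.

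Of 20 pancreas and foregut lineage factors, 8 had a wide region over a start in control and 6 in HNF4G-KO, 40.0% and 30.0%, beside 15.7% and 11.2% of all protein-coding genes. The shares of the lists below stand beside the same values, the lists hold 13 to 20 genes each, and no list was tested against all genes. HNF4A, the paralog of HNF4G, had 1757 bp in control and 1734 bp in HNF4G-KO. FOXA1, a forkhead factor, had 1972 and 1962 bp, and FOXA2 had 2484 and 2674 bp. PDX1, the homeobox factor of the pancreas, had 1792 and 1811 bp, SOX9 of the duct lineage 1539 and 1514 bp, and CDX2 of the intestine 1773 and 1718 bp. These 6 differed by at most 190 bp. GATA6, a zinc finger factor that was wide in control only, was broken rather than gone. It had 1 region of 1980 bp in control and 2 of 1218 and 554 bp in HNF4G-KO, which covered 1765 bp of the locus.

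In the YAP and TEAD pathway, which relays growth control by cell contact, 3 of 13 genes were wide in control and 5 in HNF4G-KO, 23.1% and 38.5% beside 15.7% and 11.2% of all protein-coding genes. YAP1, the coactivator, had 2 control regions of 901 and 1344 bp and 1 HNF4G-KO region of 2449 bp, so the covered bases differed by only 214 bp. TEAD3, a DNA-binding partner, had 932 and 1003 bp in control and 1984 bp in HNF4G-KO. WWTR1, the YAP1 paralog, had 1720 and 1554 bp, and AMOTL2, an angiomotin, had 2057 bp against pieces of 327 and 1540 bp. Of 16 AP-1 and other immediate early genes, 0 were wide in control, where the share over all protein-coding genes was 15.7%, and 2 in HNF4G-KO, a share of 12.5% near the 11.2% of all genes. EGR1 had 590 and 1160 bp in control and 1933 bp in HNF4G-KO, and MAFF had 558 and 1126 bp and then 1767 bp. These 4 joins differed from the control by 167 to 250 covered bp.

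Of 15 KLF and SP factors, 4 were wide in control and 1 in HNF4G-KO, 26.7% and 6.67% beside 15.7% and 11.2% of all protein-coding genes. SP1 had 1538 and 1506 bp. KLF4 had 1609 bp and then 1370 bp, and SP2 1720 bp and then 1390 bp. SP4 had 2049 bp and then pieces of 796 and 848 bp. Of 16 epithelial junction and keratin genes, 4 were wide in control and 3 in HNF4G-KO (25% and 18.8%), with OCLN, the tight junction protein gene, at 2110 and 1785 bp and TJP1 at 1767 bp and then 1173 and 420 bp. JUP, plakoglobin, is counted in both, but at different starts. One of its regions had 1768 bp in control and pieces of 1417 and 385 bp in HNF4G-KO, and the other had 1484 and 1504 bp.

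Of 20 replication-dependent histone genes, 7 were wide in control and 6 in HNF4G-KO, 35.0% and 30.0% beside 15.7% and 11.2% of all protein-coding genes. H3C1 and H4C1 shared a region of 1775 and 1751 bp, H2AC6 and H2BC4 one of 1587 and 1589 bp, and H1-3 had 1689 bp in control and pieces of 792 and 632 bp in HNF4G-KO. Of 20 ribosomal protein genes, which are among the most expressed genes of most cells, 1 was wide in control (RPL7A, 1934 bp) and 0 in HNF4G-KO, 5% and 0% beside 15.7% and 11.2% of all protein-coding genes. Of the 15 mucins and secreted gut epithelial genes, 0 were wide in either list, beside the same shares. The nearest was MUC13, a membrane mucin gene, with 1490 bp in control and 815 bp in HNF4G-KO. Of 15 pancreatic cancer driver genes, 3 were wide in control and 2 in HNF4G-KO (20% and 13.3%), among them CDKN2A, which encodes cell cycle inhibitors, with 2335 and 2068 bp at one of its starts. ATM had 1715 bp in control and pieces of 1408 and 200 bp in HNF4G-KO.

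Of 20 chromatin regulators, 3 and 2 were wide, shares of 15.0% and 10.0% that were near the 15.7% and 11.2% of all protein-coding genes. DNMT1, the maintenance DNA methyltransferase, had 1715 and 1627 bp. HDAC3 had 2134 bp in control and pieces of 1295 and 557 bp in HNF4G-KO, and EP300 had 920 and 551 bp in control and 1609 bp in HNF4G-KO. Of 15 basal and squamous genes, 2 were wide in each list (13.3%), KRT15 at 1749 and 1678 bp and CAV1 at 2304 and 2289 bp. Of 15 abundant nuclear and host noncoding RNA genes, 4 and 3 were wide (26.7% and 20%), among them GAS5 at 1543 and 1548 bp. Of 15 hematopoietic, endothelial and fibroblast markers, 1 was wide in each list (6.67%), CD14, with 1625 and 1629 bp.

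Wide regions with no start within 1 kb numbered 466 in control and 231 in HNF4G-KO. In control 236 had their center in an intron, 23 in an exon and 207 between genes, and in HNF4G-KO the counts were 110, 17 and 104. The nearest protein-coding start lay a median of 19820 bp away in control and 17718 bp in HNF4G-KO, and 63 and 23 lay more than 100 kb away. After the chromosome 21 region, the widest control ones were nearest RAN (2906 bp), ATP23 (2744 bp), PLXND1 (2575 bp) and SOX4 (2503 bp). HNF4G-KO held a region of 2053 bp beside one of 360 bp at the first, pieces of 1168, 986 and 317 bp at the second, a region of 2238 bp beside one of 245 bp at the third and 1 region of 2556 bp at the fourth. The widest HNF4G-KO ones were nearest SOX4, WNT10A (2448 bp, an intron of the gene), ANO1 (2245 bp) and GPIHBP1 (2239 bp), and all were single wide regions in control. At the 499 loci of this kind that were wide in either list, the median HNF4G-KO minus control difference was -150 bp, against -100 bp at the 3223 promoter loci. Fewer bases in HNF4G-KO were found at 85.8% (82.4 to 88.6), against 76.1% (74.6 to 77.6). Of the 499 loci, 54.1% were wide in control only and 6.61% in HNF4G-KO only, against 38.0% and 11.7% at promoters. The choice of loci fixed which list could cover fewer bases there, and its part in this contrast was not tested.

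By chromosome, the number of HNF4G-KO wide regions for each control one ran from 0.462 on chromosome 21 (18 and 39 regions) and 0.495 on the X chromosome (47 and 95) to 0.864 on chromosome 13 (38 and 44). The HNF4G-KO list held fewer wide regions than the control list on every chromosome with any, and the Y chromosome had none in either list. Regions of any width were also fewer in HNF4G-KO than in control on every chromosome. Their numbers were 942 and 1270 on chromosome 21, 2499 and 3147 on X, and 1801 and 2087 on chromosome 13. The part of this in the counts of wide regions was not tested. The median difference in covered bases was below 0 on every chromosome with wide regions, from -174 bp on chromosome 15 to -53.5 bp on chromosome 20. It follows in part from the choice of loci, as over all loci.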

How the data were processed

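ATAC-seq was made by the Omni-ATAC protocol with paired-end sequencing. The submitters' processing notes name Bowtie2 2.2.6, MACS2 2.1.1.20160309 and DiffBind, and the builds hg38 and mm10. The knockout comparison combined 4 biological replicates; how they were combined into a list, the threshold and the read shift are not given in the sources used here. The authors deposited 1 BED list per group, with start, end and a score of unknown scale per region, and these deposited scores were used as percentiles within a list. All ends of both HPAF-II lists lay inside hg38. Coordinates are 1-based. Reads per replicate were not analysed here.

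Start sites of all transcripts came from GENCODE 44. Wide regions were classed by any overlap of at least 1 bp with the other list. A locus is a merged set of wide regions. Shares carry Wilson 95% intervals (scipy 1.17.1); no test across regions was made. Second alignments came from minimap2 2.31. Python 3.11.15, pandas 2.3.3 and pysam 0.24.0 were used, and the overlap steps were tested on simulated lists. Named regions were the 10 widest of each list, the 5 widest without a start within 1 kb, the 5 loci with the largest loss and gain of bases, the 3 nearest to each side of 1500 bp, and up to 4 genes per list of genes, with a few further genes of these lists added after their values were seen. The members and the gene lists were chosen with earlier results of these data known. Printed sequences were read from hg38. A few genes of the lists are not reported here.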

Additional observations from a re-analysis of the deposited data

How the results depend on the processing

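Of 55 recomputed values, 33 stayed within the interval of the reported value (counts within 1.5 times) and 22 moved. The median difference alone could change direction, being neither a count nor a share, and it did so in 0 of its 7 alternatives. At 1000 bp there were 14227 control and 11252 HNF4G-KO wide regions, with promoter shares of 67.4% and 75.1%, wide counterparts for 71.2% and 90.0% and a median difference of -80.0 bp. At 2000 bp the values were 500 and 283 regions, 90.4% and 91.2%, 39.8% and 70.3%, and -136 bp. With equal numbers, the control promoter share was 87.7%, counterpart shares were 64.3% and 64.5%, and the median difference was -68.0 bp. The control promoter share was 84.4% by centers and 83.9% with a start inside the region, and with protein-coding starts the shares were 80.1% for control and 83.8% for HNF4G-KO. Joining gaps of 100 bp or less, the upper 50% by score, autosomes only, a reciprocal overlap of 50% and, chosen after seeing the data, leaving out regions with a second alignment moved none of the values they were applied to. No paired analysis was possible because each group has 1 list, and leaving out a replicate was not possible for the same reason. Without reads or replicates, neither depth nor spread between cultures could be set beside the widths.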
